A study of Arabidopsis thaliana with 4 samples.

Results

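*BiP3* (AT1G09080), *SDF2* (AT2G25110), *ERDJ3B* (AT3G62600) and *P58IPK* (AT5G03160) encode an Hsp70 chaperone of the endoplasmic reticulum (ER) and 3 proteins that work with it, and binding of the transcription factor AtbZIP17 near these 4 genes is described here. The genes were grouped by their function, but they were chosen with earlier results of these data known. For *BiP3*, *SDF2* and *P58IPK*, peaks were found by name in the study's list of target genes. Of the genes on that list, 842 occur in the lines used here. The study counts *ERDJ3B* among the targets of its ChIP-seq, but the gene does not occur in those lines. Its peaks were therefore taken as those that overlap positions 23149851 to 23158013 of chromosome 3. These positions are not those of the gene but the stretch covered by the 3 peaks listed for its neighbour *MYB11*, so the values given for *ERDJ3B* are those of peaks next to it that the lines used here do not assign to it. These rules gave 16 of the 13344 peaks in all, 6 of 4523 in replicate 1, 5 of 4491 in replicate 2 and 5 of 4330 in replicate 3.

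The 3 anti-MYC ChIP samples (replicates 1, 2 and 3) and the 1 input sample with no antibody all came from 13-day-old *Arabidopsis* seedlings of genotype 35Spro::MYC-bZIP17, raised at 22 °C and then kept at 42 °C for 2 h. ChIP-seq recovers the DNA fragments to which a tagged protein was cross-linked, here AtbZIP17 with a MYC tag, and counts where they pile up. Each ChIP sample has its own peak list, called by the authors against the same input. No unheated seedlings and no seedlings without the transgene are among the samples, so the lists say nothing of what heat changed. The 35S promoter drives expression in most tissues, and the amount and place of the tagged protein therefore need not be those of the native one. Whether the 3 ChIP samples came from separate batches of seedlings is not stated, so the spread between them may be technical. Read totals are unknown, and positions are those of TAIR10, the genome build in the submitters' processing notes.

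Proteins that enter the ER fold with the help of BiP, an Hsp70 chaperone that binds and releases unfolded stretches in a cycle driven by ATP. J-domain proteins bring unfolded clients to BiP and speed up its ATP hydrolysis, and ERDJ3B and P58IPK are J-domain proteins of the ER lumen. SDF2 forms a complex with ERDJ3B and BiP, which in *Arabidopsis* is needed for the accumulation of the immune receptor EFR. When unfolded proteins pile up, the unfolded protein response (UPR) raises the expression of such genes, and *BiP3* is the BiP gene of *Arabidopsis* best known for being induced by ER stress. AtbZIP17 is held in the ER membrane and released by proteolysis, after which its bZIP domain can bind DNA in the nucleus.

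The study also tested binding at *SDF2* and *ERDJ3B* by ChIP-qPCR and reported it at the promoters of both. The 4 primers are shown because they are the promoter sequence of these genes that is at hand here. Capitals mark ACGT, the core that many plant bZIP proteins recognise, which occurs in 1 primer of each pair. How often other sequences hold these 4 bases was not counted, and a match is not a binding site.
SDF2 forward: tgccggatctagtacccata
SDF2 reverse: cgcaggtgtACGTttagatagc
ERDJ3B forward: cgACGTcgtactcattaaagt
ERDJ3B reverse: ctcgaatcactctctctac
The primers were not placed on chromosomes 2 and 3, for want of a genome sequence, and no further promoter sequence is shown.

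A strong peak of MYC-bZIP17 was found at each of the 4 genes in every replicate. Its height is given by a pair of values. The pileup counts the fragments that cover the summit, and the fold enrichment divides it by a local background, which MACS derived from the input sample, with 1 added to both. The highest of the 4 was the peak of *ERDJ3B*, whose protein is the J-domain partner in the SDF2 complex. Its fold enrichment was 22.1, 31.6 and 30.5 in replicates 1, 2 and 3, a mean of 28.1 ± 5.19 (SD, n = 3). The pileup behind it was 485, 664 and 617 fragments. Replicate 1 stood below the others in both values, and all 3 were far above every value of the other genes.

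At *BiP3*, the ER Hsp70 gene, the fold enrichment was 10.3, 11.7 and 11.5 in the same order of replicates. The mean was 11.2 ± 0.782 (SD, n = 3), from pileups of 187, 200 and 195 fragments. At *P58IPK*, the second J-domain gene, it was 11.0, 13.8 and 13.0, a mean of 12.6 ± 1.43 (SD, n = 3), and its pileups were 210, 264 and 241 fragments. The ranges of *BiP3* and *P58IPK* overlap, and the gap between the means is about as large as the SD of *P58IPK*. At *SDF2* it was 13.9, 14.8 and 15.0, a mean of 14.6 ± 0.608 (SD, n = 3), from pileups of 231, 263 and 252 fragments. *SDF2* varied least of the 4, with an SD of 4.17% of its mean, against 7.01% at *BiP3*, 11.4% at *P58IPK* and 18.5% at *ERDJ3B*. The lowest value of *SDF2*, 13.9, lay just above the highest value of *P58IPK*, 13.8.

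**Figure D1:**
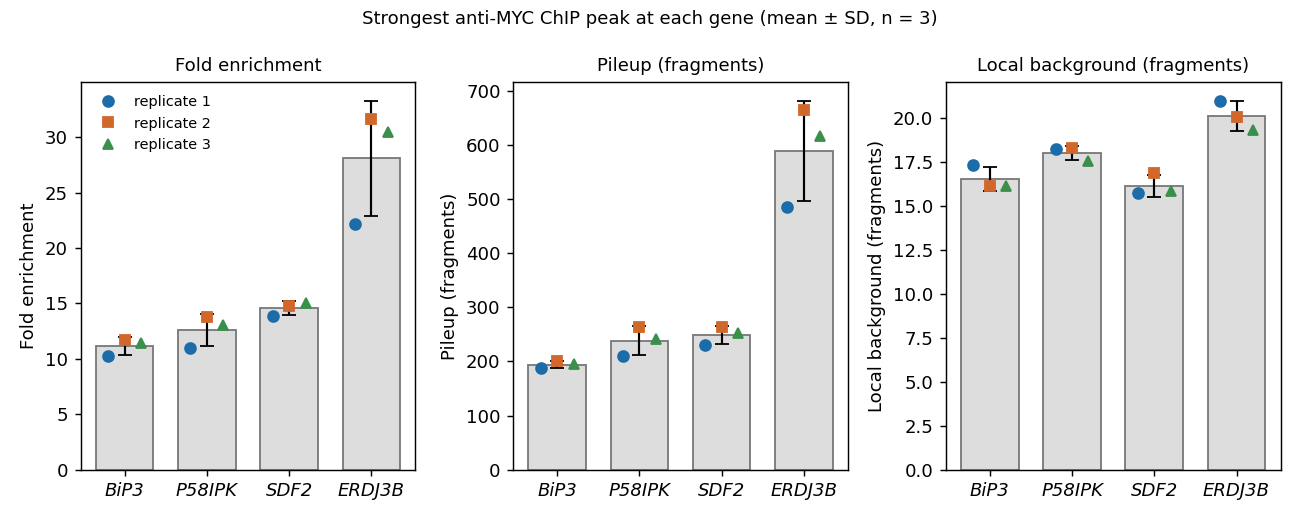
Fold enrichment, pileup and local background (both in fragments) of the strongest peak at each gene; points are the 3 replicates, bars the means and whiskers the SD. *ERDJ3B* stands apart in fold enrichment and pileup, with 28.1 against 11.2 to 14.6 in the mean fold enrichment, while the local background of all 4 genes lies between 15.7 and 21.0 fragments.

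Since fold enrichment is a quotient, the local background was worked out from both values of each peak. It was 16.5 ± 0.694 fragments at *BiP3*, 18.0 ± 0.395 at *P58IPK*, 16.1 ± 0.631 at *SDF2* and 20.1 ± 0.845 at *ERDJ3B* (SD, n = 3 each). *ERDJ3B* had the highest background of the 4 in all lists, so its lead was larger in pileup than in fold enrichment. *P58IPK* also had a higher background than *SDF2* in every list, and in replicate 2 its pileup of 264 fragments was just above the 263 fragments of *SDF2*, although its fold enrichment was lower. The median background over all peaks was 15.4, 15.2 and 14.8 fragments in the 3 lists. The lists share 1 input, so the agreement of the background between replicates is not an independent repeat.

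To set the ER Hsp70 gene against the genes of its co-chaperones, *BiP3* was compared with *SDF2*, *ERDJ3B* and *P58IPK* within each list. *BiP3* had the lowest fold enrichment of the 4 genes in all 3 lists. It was 10.3 at *BiP3* in replicate 1, where the co-chaperone genes had a geometric mean of 15.0. In replicate 2, *BiP3* had 11.7 and the co-chaperone genes 18.6. In replicate 3, *BiP3* had 11.5 and the co-chaperone genes 18.2. The ratio was thus 0.684, 0.631 and 0.632, a mean of 0.649 ± 0.0305 (SD, n = 3), or -0.63 ± 0.067 on the log2 scale. An exact two-sided sign-flip permutation test over the 3 lists gave p = 0.25, which is the smallest p that 3 lists allow, so the design cannot reach a threshold of 0.05. *BiP3* was lower in 3 of 3 lists.

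Most of this distance came from *ERDJ3B*. The fold enrichment of *BiP3* was 0.464, 0.371 and 0.376 times that of *ERDJ3B* in replicates 1, 2 and 3, a mean of 0.403 ± 0.0522 (SD, n = 3). Over *SDF2*, the ratio was 0.740, 0.794 and 0.763, a mean of 0.765 ± 0.0272. It was 0.934, 0.853 and 0.879 over *P58IPK*, a mean of 0.888 ± 0.0412. In every list *P58IPK* was thus the co-chaperone gene closest to *BiP3* in fold enrichment. The ratio of *BiP3* to *SDF2* had an SD of 0.051 on the log2 scale, against 0.10 for *BiP3* and 0.061 for *SDF2* alone. Each SD rests on 3 values, which do not tell these spreads apart.

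**Figure D2:**
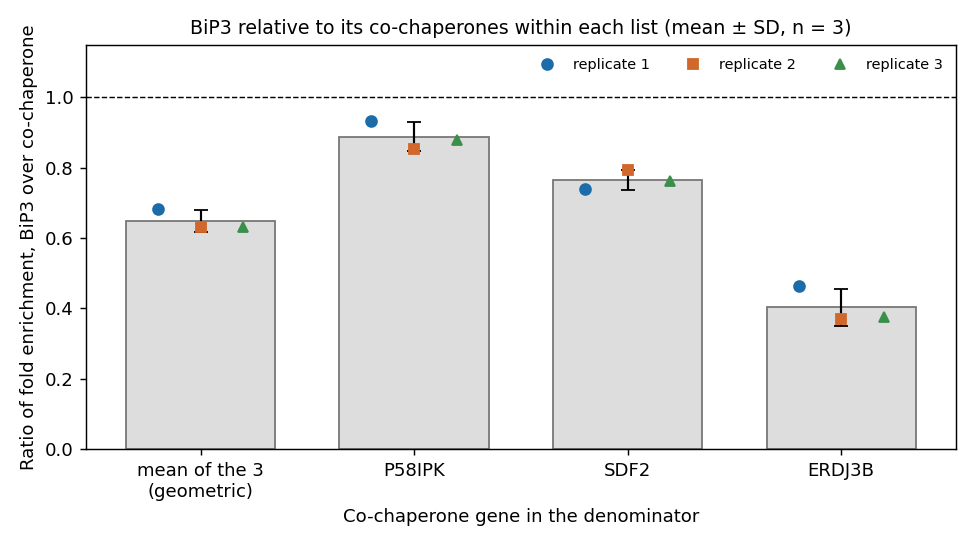
Fold enrichment of *BiP3* divided by that of its co-chaperone genes within each list; points are the 3 replicates, bars the means, whiskers the SD, and the dashed line a ratio of 1. All 12 points lie under 1, from 0.371 over *ERDJ3B* in replicate 2 to 0.934 over *P58IPK* in replicate 1.

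The co-chaperone genes were not alike among themselves. *P58IPK* had 0.453 ± 0.0379 times and *SDF2* 0.529 ± 0.0857 times the fold enrichment of *ERDJ3B* (SD, n = 3 each), and both ratios stayed below 1 in every list. The 2 J-domain genes thus lay further apart than *P58IPK* and *SDF2*, whose ratio was 0.792, 0.931 and 0.868. In pileup the ratio of *P58IPK* to *SDF2* was 0.909, 1.004 and 0.956, which did not separate them. Each of the 6 pairs of genes kept its order in 3 of 3 lists by fold enrichment. The exact sign-flip permutation test gave p = 0.25 for every pair, and 0.25 after Benjamini-Hochberg adjustment over the 6 pairs.

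To see how strong these peaks were, they were placed among the other peaks. When overlapping peaks of the 3 replicates were merged, 1341 of 8992 regions held a peak of every replicate (14.9%). All 4 genes lie in such a common region, which the way their peaks were found had fixed, since the target list requires a peak region common to the replicates, and the count says nothing about them. A fold enrichment of at least 10 in every replicate was reached at 4 of 4 genes and in 5.67% of the common regions (76 of 1341). This limit was chosen with earlier results of these data known and lies just below the lowest value, 10.3 at *BiP3* in replicate 1. The count of genes is therefore not read against that share. The limits of 100 bp and 2000 bp used below were chosen in the same way. By the mean over replicates, *ERDJ3B* ranked 6, *SDF2* 51, *P58IPK* 68 and *BiP3* 79 among the 1341 regions. In the single lists, *ERDJ3B* ranked 8, 4 and 3, and the other genes ranked from 42, for *SDF2* in replicate 1, to 83, for *BiP3* in replicate 3. All 12 peaks were within the top 1.92% of their list. The −log10 of the *q* value was 118 at the least, for *BiP3* in replicate 1, and 728 at the most, for *ERDJ3B* in replicate 2. Among the 842 target genes in the lines used here, *SDF2* ranked 45, *P58IPK* 57 and *BiP3* 62 by their strongest peaks.

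**Figure D3:**
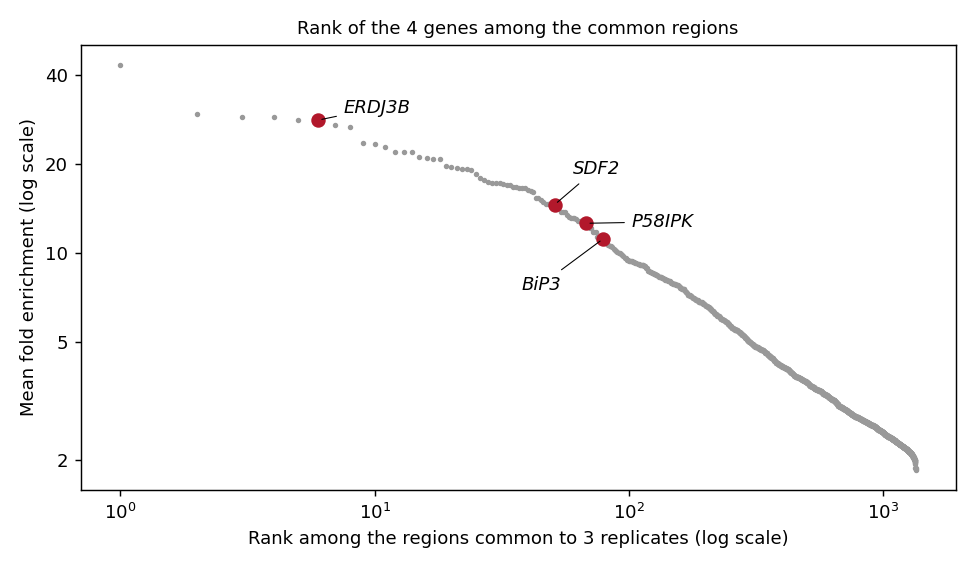
Mean fold enrichment of the 1341 common regions (grey points, both axes on log scales) against their rank, with the 4 genes in red. *ERDJ3B*, at rank 6, sits near the top of the curve, and *SDF2*, *P58IPK* and *BiP3* follow close together at ranks 51, 68 and 79.

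The summits of the replicates lay close to one another at all 4 genes. At *BiP3* on chromosome 1, they were at 2931942, 2931992 and 2931967, within 50 bp. The summits of *P58IPK* on chromosome 5 were at 749994, 750056 and 750003, within 62 bp, where replicate 2 was set off from the others, which were 9 bp apart. At *SDF2* on chromosome 2, they were at 10684113, 10684077 and 10684068, within 45 bp, and here replicate 1 was the one set off. The tightest were those of *ERDJ3B* on chromosome 3, at 23153566, 23153556 and 23153552, within 14 bp. All 4 genes had their summits within 100 bp, as did 51.8% of the common regions. The 76 strong regions had a fold enrichment of at least 10 throughout. Their distance from the first to the last summit had a median of 32.5 bp and an upper quartile of 45 bp. *BiP3* and *P58IPK* were thus above and *SDF2* at that quartile, while *ERDJ3B* was under the lower quartile of 18 bp. Most of these regions had a lower fold enrichment than *ERDJ3B*, and regions matched to its strength were not compared.

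The edges of the peaks agreed far less than their summits. At *BiP3* the peaks of replicates 1, 2 and 3 ran from 2930291 to 2934527, from 2929703 to 2933994 and from 2929999 to 2933437. The left edge thus varied by 588 bp and the right edge by 1090 bp. The peak of *P58IPK* ran from 748661 to 752431, from 747600 to 752009 and from 748977 to 752786, with edges that varied by 1377 and 777 bp. At *SDF2* the edges varied by 1068 and 895 bp, since the peak ran from 10681980 to 10685361, from 10682754 to 10685694 and from 10683048 to 10686256. At *ERDJ3B* it ran from 23151156 to 23158013, from 23150557 to 23157176 and from 23149851 to 23156541, and the edges varied by 1305 and 1472 bp. The stretch shared by the 3 replicates was 3147 bp at *BiP3*, 3033 bp at *P58IPK*, 2314 bp at *SDF2* and 5386 bp at *ERDJ3B*, between 54.1% and 66.0% of the stretch covered by any of them. As a result, the summit had no fixed place within the peak. At *SDF2* it lay at 63.1%, 45.0% and 31.8% of the width from the left edge in replicates 1, 2 and 3, and at *ERDJ3B* at 35.1%, 45.3% and 55.3%.

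**Figure D4:**
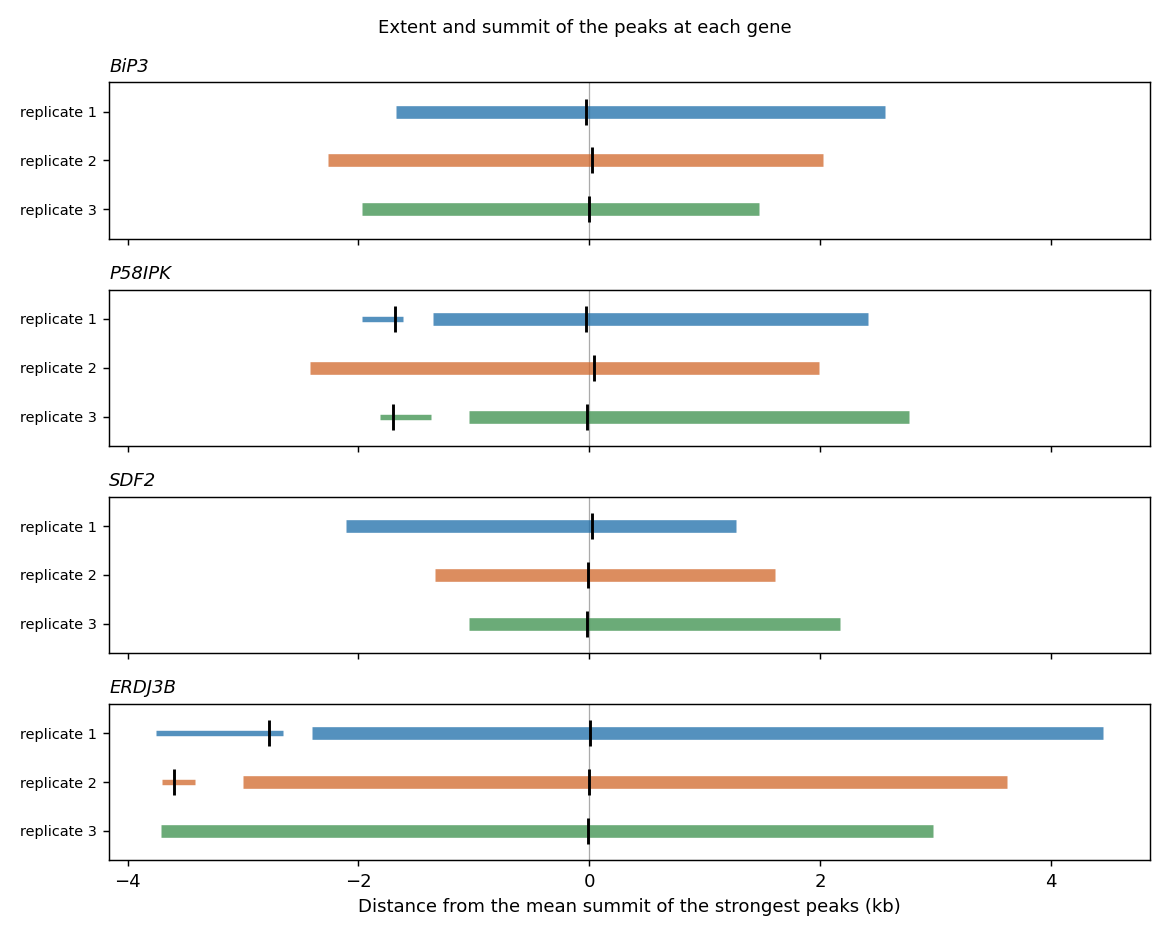
Extent of the peaks at each gene in the 3 replicates, as the distance in kb from the mean summit of the strongest peaks; thick bars are the strongest peaks, thin bars weaker ones, and black ticks the summits. The ticks of the thick bars line up within 14 to 62 bp, while their ends vary by 588 to 1472 bp.

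All 4 genes had wide peaks. The width was 4237, 4292 and 3439 bp at *BiP3*, a mean of 3989 ± 477 bp (SD, n = 3). *P58IPK* had widths of 3771, 4410 and 3810 bp, a mean of 3997 ± 358 bp, which differed from *BiP3* by less than the SD of either. *SDF2* had the narrowest peaks, of 3382, 2941 and 3209 bp, a mean of 3177 ± 222 bp, although its fold enrichment was above that of *BiP3* and *P58IPK*. The peaks of *ERDJ3B* were 6858, 6620 and 6691 bp wide, a mean of 6723 ± 122 bp. A width of at least 2000 bp in every replicate was found at 4 of 4 genes and in 11.8% of the common regions. The median of the mean width was 3919 bp over the 76 strong regions, close to *BiP3* and *P58IPK*, with quartiles of 3180 and 4682 bp. *SDF2* was therefore at the lower quartile of these strong regions and *ERDJ3B* above the upper one. Most of these regions had a lower fold enrichment than *ERDJ3B*, which ranked 6 among the common regions. Its width was not compared with regions matched to its strength.

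**Figure D5:**
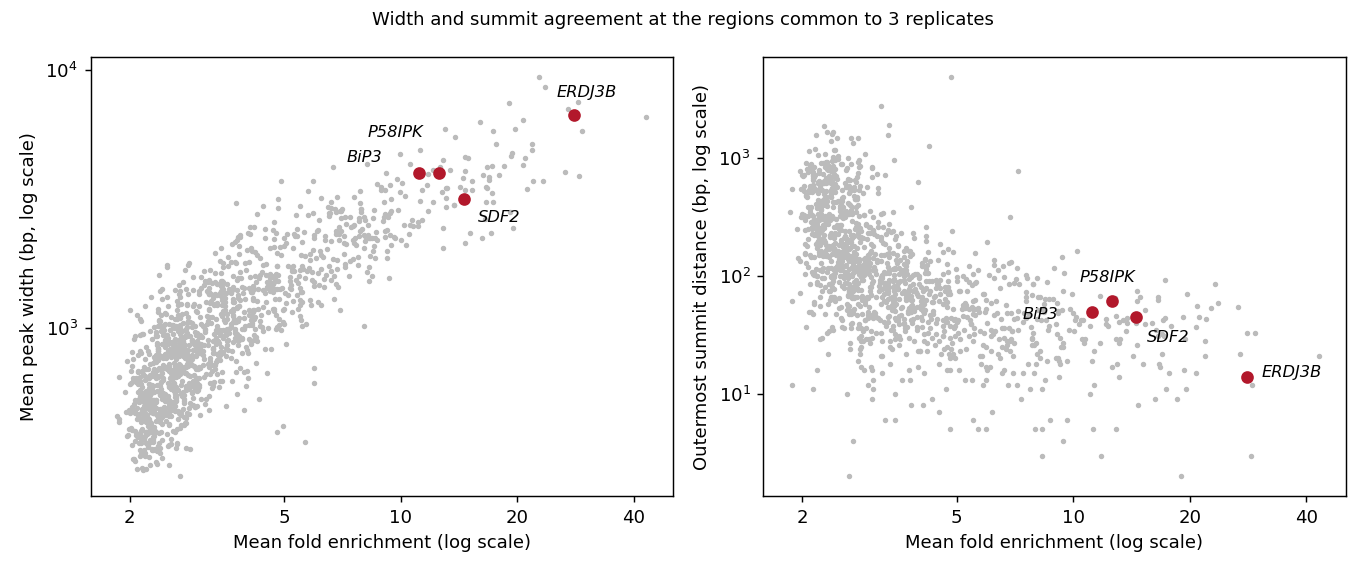
Mean peak width (left) and distance between the outermost summits (right), both in bp, against mean fold enrichment for the 1341 common regions (grey) and the 4 genes (red), all on log scales. *ERDJ3B* combines a mean width of 6723 bp with a summit distance of 14 bp, and the other 3 genes lie among regions of like strength, with mean widths of 3177 to 3997 bp.

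The rules that chose the peaks took a single peak per list for *BiP3* and *SDF2*, and also weaker peaks for the other genes. This is no difference between the genes. Weaker peaks were also called near *BiP3* and *SDF2*, and the lines used here list them for no gene. For *P58IPK*, a second peak was listed in replicates 1 and 3. In replicate 1 it covered 748049 to 748400 and had its summit at 748334. In replicate 3 it covered 748203 to 748646, and the summit at 748320 was 14 bp away. Its fold enrichment was 2.04 and 2.01, below the median of all peaks in these lists, 2.20 and 2.24. In replicate 2 no separate peak was called there, and the single wide peak of *P58IPK* covers both places. The 5 peaks of *P58IPK* therefore give 4 lines in the target list, each a combination of 1 peak per replicate. At *ERDJ3B*, a weaker peak in replicate 1 covered 23149808 to 23150905, and another in replicate 2 covered 23149860 to 23150142. Their fold enrichment was 2.37 and 2.27, and in replicate 3 the main peak reaches over most of that stretch. In replicate 1, the fold enrichment of the main peak was 5.39 times that of the weaker one at *P58IPK* and 9.36 times at *ERDJ3B*.

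A peak can be listed for more than 1 gene, and neighbouring genes were looked at for this reason. The 3 peaks of *BiP3* are also listed for *RBOHB* (AT1G09090), which encodes an NADPH oxidase and is the next protein-coding gene on chromosome 1, so that these data do not assign them to either gene. The 3 main peaks at *ERDJ3B* are listed for its neighbour *MYB11* (AT3G62610), a regulator of flavonol synthesis. The lines used here do not list them for *ERDJ3B*. The peak lists alone do not tell which of these genes the peaks belong to, which holds for every value given for *ERDJ3B*. The study itself named *ERDJ3B* as a target from its ChIP-seq, showed binding peaks on it and reported binding at its promoter by ChIP-qPCR. The absence of *ERDJ3B* from the lines used here is therefore not an absence from the study's targets. The ChIP-qPCR primers were not placed relative to these peaks. In the lines used here, the peaks of *SDF2* and *P58IPK* are listed for no other gene. Their protein-coding neighbours AT2G25100 and AT2G25120 for *SDF2*, and *JKD* (AT5G03150) and *FLA11* (AT5G03170) for *P58IPK*, do not occur in these lines. Of the 14 peaks at the 4 genes that are listed, 3 are listed for more than 1 gene, against 18.3% of the 2432 peaks in these lines. The count is 6 of 14 if the peaks listed for *MYB11* are also counted as those of *ERDJ3B*, so it is not read against that share. Lines of the target list that were not used here could add further genes.

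The flower list of the study names genes that its RNA-seq found raised by heat in flowers of wild-type plants but not of *bzip17* mutants. That RNA came from other plants and another tissue, after a longer heat treatment at a lower temperature than for the seedlings. *SDF2*, *ERDJ3B* and *P58IPK*, the 3 co-chaperone genes, are on the flower list, and *BiP3*, the gene with the lowest fold enrichment of the 4, is not. By RT-qPCR, however, the study found *SDF2* significantly raised by heat in *bzip17* flowers too, by a smaller fold than in wild-type flowers. *ERDJ3B* was not significantly affected in the mutant flowers. The list holds 1380 genes, and 4.78% of the protein-coding genes in RefSeq (1317 of 27562) are on it. Since the 4 genes were chosen with earlier results known, their number on the list is not read against that share. With a single gene off the list, no relation between binding and the list was tested. *RBOHB* and *MYB11*, which share peaks with *BiP3* and *ERDJ3B*, are not on it, nor are the other direct neighbours of the 4 genes.

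Further genes of ER protein folding were taken from a list of 23, of which 7 occur in the lines of the target list used here. These lines hold 842 genes and are not the whole list, so the count is not a result about the 23. Peaks of the other 16, among them *BiP1*, *BiP2*, *ERDJ3A*, *SHD* and *CNX1*, were not analysed here. *HSP70-17* (AT4G16660), an Hsp70 of the GRP170 type, had a fold enrichment of 12.0, 12.9 and 13.0, a mean of 12.6 ± 0.548 (SD, n = 3), which differed from the 12.6 ± 1.43 of *P58IPK* by less than the SD of either. Among the protein disulfide isomerase genes, *PDIL2-2* (AT1G04980) had 16.0 ± 1.05, *PDIL2-1* (AT2G47470) 13.1 ± 1.01 and *PDIL1-1* (AT1G21750) 8.90 ± 1.51 (SD, n = 3 each). Of the genes of ER-associated degradation, which removes proteins that fail to fold, *DER1* (AT4G29330) had 14.7 ± 2.30, *HRD3A* (AT1G18260) 6.53 ± 0.916 and *OS9* (AT5G35080) 3.70 ± 0.2503 (SD, n = 3 each). By mean fold enrichment among the 842 target genes in these lines, *PDIL2-2* ranked 35, *DER1* 42, *PDIL2-1* 51 and *HSP70-17* 56. *PDIL1-1* at 95, *HRD3A* at 163 and *OS9* at 365 ranked below *BiP3* at 62. The summits of the 3 replicates lay within 14 to 118 bp at these 7 genes. The means of *SDF2* and *DER1* differed by less than the SD of either, and *ERDJ3B* was above all 7. Of the 23 genes, 5 are on the flower list, namely *HRD3A* among the 7 and *SHD*, *CNX1*, *CNX2* and *PDIL1-2* among the other 16. The share over the protein-coding genes is 4.78%. The 23 genes were chosen with earlier results of these data known, so their count is not read against that share.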

How the data were processed

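Peak lists of 3 anti-MYC ChIP samples were used, and the input entered only through peak calling. The authors trimmed reads with Skewer, dropped those under 50 bp, kept reads mapped by Bowtie to unique positions (TAIR10 per the labels), removed duplicates and called peaks with MACS per sample at *P* < 0.001; versions are not given in the sources used here. Unique mapping and duplicate removal can lower pileups in repeated sequence and at high peaks. The deposited pileup is a signal (fragments at the summit), and the deposited fold enrichment is a ratio of pileup plus 1 to local background plus 1. The deposited −log10 *P* values were recomputed from this form by a Poisson tail within 1% for 99.4% to 99.7% of peaks. Depth is unknown, so errors rest on the 3 replicates. Only peaks past the limit are listed.

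A gene's value is that of its strongest peak in each list. Local background was computed from pileup and fold enrichment. Regions were merged from peaks overlapping by at least 1 bp. Tests were exact two-sided sign-flip permutation tests of log2 ratios within lists. Peaks were joined to genes by name through 1389 lines of the study's target list; the other lines were not used here. Neighbours, symbols and the protein-coding total came from RefSeq TAIR10.1, without its coordinates. The genes named are the 4 members, genes sharing their peaks, their direct neighbours and the ER folding list. Members, lists and limits (fold enrichment of 10, 100 bp, 2000 bp, 5000 bp) were chosen with earlier results of these data known. Merging and the tests were checked on simulated data. The planned search for promoter elements was not run, since no genome sequence was used here. Scripts ran in Python 3.11.15, with SciPy 1.17.1 for tails, matplotlib 3.10.9 for plots, and both NumPy 2.4.6 and pandas 2.3.3 for tables.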

Additional observations from a re-analysis of the deposited data

How the results depend on the processing

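Of 107 alternative values, 20 moved and 0 reversed. Moved means by over 1 SD for fold enrichment and width and over 1.5 times for summit distances and counts. A tested ratio was held only to its sign and its side of the threshold. No ratio could cross the threshold, because the smallest p that the lists allow lies above it at every setting. Each ratio had the same sign in all 3 lists, so leaving out a replicate could not reverse it. For the ratios, the tally was thus largely fixed in advance and does not measure stability. Settings with other values, such as pileup, could have reversed a sign and did not. In pileup, the log2 ratio was -0.07 for *P58IPK* over *SDF2* and -0.29 for *BiP3* over *P58IPK*, against -0.21 and -0.17 in fold enrichment. All ChIP samples form 1 group, so samples could not be paired between groups. The genes were compared within each list, which pairs their values by list. Divided by the median of the common regions, the mean fold enrichment was 3.60 at *BiP3*, 4.07 at *P58IPK*, 4.71 at *SDF2* and 9.05 at *ERDJ3B*; against the lowest local background of each list it was 28.8, 35.3, 36.8 and 87.1. Both are other scales by construction and keep the order of the genes. With all listed peaks, summits spread over 1736 bp at *P58IPK* and 3604 bp at *ERDJ3B*, and mean widths were 4459 and 7405 bp. With each replicate left out, the summit distance ran from 25 to 50 bp at *BiP3*, 9 to 62 bp at *P58IPK*, 9 to 45 bp at *SDF2* and 4 to 14 bp at *ERDJ3B*. It was 9 bp at *P58IPK* without replicate 2, 9 bp at *SDF2* and 4 bp at *ERDJ3B* without replicate 1, and 25 bp at *BiP3* without replicate 1 or 2. Common regions numbered 728 with a reciprocal overlap of 50%, 797 with a *q* value under 1e-05 and 574 at 3-fold enrichment or more. All 4 genes were in them each time, which was fixed in advance. The lowest values of their strongest peaks were a reciprocal overlap of 68.4%, a −log10 *q* of 118 and a fold enrichment of 10.3. The log2 ratio of *BiP3* to its co-chaperone genes ran from -0.66 to -0.61 with each replicate left out. Permuting values without pairing by list gave an exact two-sided p of 0.1, the smallest that 3 against 3 values allow. The search for promoter elements upstream of the gene start only was not run.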

Other observations

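Replicate 1 was set against the mean of replicates 2 and 3 on the log2 scale of fold enrichment, a comparison chosen after the values were seen. The difference was -0.18 at *BiP3*, -0.29 at *P58IPK*, -0.10 at *SDF2* and -0.49 at *ERDJ3B*. Its median was -0.25 over the 76 common regions at 10-fold or more, and only 1 of these had a lower value than *ERDJ3B*. Over all 1341 common regions the median was -0.13.

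Within 5000 bp of the stretches covered by the peaks of the 4 genes, 23 further peaks were called, 8 near *BiP3*, 3 near *P58IPK*, 7 near *SDF2* and 5 near *ERDJ3B*. Replicate 1 had 11 of them and replicates 2 and 3 had 6 each. Their fold enrichment was between 1.75 and 2.57, and none was listed for a gene in the lines used here. A peak of a single replicate made up the region in 10 cases. In 4 cases, 3 near *BiP3* and 1 near *SDF2*, the peak lies in a merged region that also holds the main peaks of that gene.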
